A study of Mus musculus with 18 samples.

Results

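The genes described here are 40 genes of the COPI coat, of vesicle tethering and fusion between the endoplasmic reticulum (ER) and the Golgi, and of Golgi structure. They were chosen by name, with earlier results of these libraries known, and the rule records no contrast, so their counts and medians below are descriptions. All 40 were found by symbol among the 30530 genes of the count table, and all 40 were among the 12741 genes that passed the filter on low counts. By role they are 9 COPI coat subunits, 2 ARF GTPases, 7 golgins, GRASP proteins and the tether p115, 4 TRAPP subunits, 7 fusion proteins, 9 retrieval and cargo receptors and 2 factors of ER exit sites.

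RNA-seq was run on polyadenylated RNA of bone marrow derived macrophages (BMDM), which are primary mouse macrophages differentiated in culture. The 6 groups held 3 libraries each, numbered 1 to 3, and within a genotype the same number was taken to mark the same mouse. Ch25h-/- mice lack the gene for cholesterol 25-hydroxylase, the enzyme that makes 25-hydroxycholesterol (25HC) from cholesterol, and their cells received no 25HC and were studied with the synthetic lipopeptide Pam3CSK4 (PAM3), a ligand of Toll-like receptors on the cell surface, or at rest. C57BL/6 (B6) cells were given 5 µM 25HC for 18 hours and then PAM3 at 300 ng/mL, or 25HC without PAM3. Untreated B6 cells were studied with PAM3 or at rest. The labels give a stimulation time of 18 for PAM3 libraries and 0 for resting ones, with no unit, and do not say how long resting cells were kept. A difference in time therefore cannot be told apart from PAM3 in the comparisons of PAM3 with rest and in the interactions built on them. The labels name no promoter, Cre or clone, and do not say whether Ch25h-/- and B6 mice were littermates.

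COPI is a coat of several subunits that forms vesicles on the Golgi after ARF GTPases recruit it, and it carries escaped ER residents and cargo receptors back to the ER. Tethers such as TRAPP, p115 and the golgins capture vesicles at the Golgi, and SNARE proteins then fuse them with the target membrane. GRASP proteins and golgins also hold the Golgi stacks together, and in macrophages this route carries cytokines and receptors to the surface.

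Total counts ran from 14040513 to 150440297 per library. Ch25h was at 0 to 0.119 CPM in the 6 Ch25h-/- libraries, against 1.66 to 40.8 CPM in the 12 B6 libraries, so the labels matched the targeted gene. CPM is the counts-per-million unit, here on library totals scaled by TMM, and gives relative levels within a library. All 8 macrophage markers were detected in every group, with a summed level of 49627 to 54498 CPM in Ch25h-/- with PAM3, 32493 to 41791 in Ch25h-/- at rest, 26277 to 32882 with 25HC and PAM3, 19206 to 21912 with 25HC at rest, 44398 to 58009 in B6 with PAM3 and 27210 to 33810 in B6 at rest. Summed markers of other cell types stayed at or below 0.483 CPM for T and NK cells (5 genes, Cd3e and Cd3g at 0 throughout), 23.8 for B cells (5 genes), 46.0 for neutrophils (6 genes), 2.67 for dendritic cells (4 genes), 14.5 for fibroblasts (8 genes) and 23.8 for endothelium (4 genes). Of 6 erythroid markers 2 were analysed here and stayed at or below 0.0596 CPM. Lower macrophage marker sums and lower B cell marker sums went with 25HC both at rest (B cell markers 4.32 to 5.37 CPM with 25HC against 8.31 to 11.6 CPM without) and with PAM3 (0.895 to 1.67 CPM against 7.82 to 17.2 CPM). The B cell sum was nearly all Cd79b. Lyz2 made up most of the macrophage sum. Csf1r went the other way with PAM3, at 2589 to 2791 CPM with 25HC against 2074 to 2302 CPM without. Endothelial marker sums moved with PAM3, at 20.04 to 22.4 CPM in Ch25h-/- with PAM3 against 3.46 to 14.4 CPM at rest, 8.25 to 11.2 CPM against 6.74 to 8.55 CPM after 25HC, and 20.9 to 23.8 CPM against 5.43 to 8.35 CPM in untreated B6. Pecam1 carried this rise, at 16.9 to 20.6 CPM with PAM3 against 0.865 to 2.17 CPM at rest in untreated B6. Kdr went the other way there, at 1.34 to 3.81 CPM with PAM3 against 2.98 to 7.05 CPM at rest. The part of these shifts in the results below was not tested.

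Library 2 stood apart in 5 of the 6 groups. By chi-square per degree of freedom over genes, which also grows with depth, it differed more from libraries 1 and 3 than these did from each other in every group except untreated B6 with PAM3. In Ch25h-/- with PAM3, where depths were alike, the value was 97.6 and 62.9 against libraries 1 and 3 and 10.2 between these. Among the 40 genes, library 2 of untreated B6 at rest was the lowest of 3 for Uso1 (72.4 CPM beside 106 and 96.1 CPM), Tmed2, Lman1 and Kdelr2, and the highest for Golga2, Golgb1 and Stx5a.

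Promoters were read for 33 of the 40 genes in the RefSeq promoter table (GRCm38.p6, from 250 bases before to 50 after each start). Entries were missing for Arcn1, Golgb1, Trappc1, Trappc4, Kdelr2, Tmed2 and Lman1. Exact letters were searched on both strands for sites of factors known for secretory pathway genes. The UPRE core TGACGTGG, a site of the stress factors XBP1 and ATF6, was in 6 of 33 members (18.2%) and in 1.04% of the 9436 tested genes with an entry, and the 6 were Copb1, Copb2, Arf1, Stx5a, Scfd1 and Kdelr3. The Golgi apparatus stress element ACGTGGC was in 9 members (27.3%) and in 4.60% of tested genes, and the 9 were Copg1, Copz2, Arf1, Uso1, Stx5a, Scfd1, Kdelr3, Tmed9 and Mcfd2. Both motifs share the letters ACGTGG, so 1 site can count for both. The cAMP response element TGACGTCA was in 2 members, Cope and Gosr2 (6.06%), and in 3.70% of tested genes. The CARE motif TGATGNAA of ATF4 and its partners was in 1 member, Kdelr1 (3.03%), and in 2.87%. The ERSE, which is CCAAT and CCACG set 9 bases apart, was in 0 members and in 0.170%. These matches describe letters in a window and say nothing on their own about binding.

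The stretches below were chosen because they hold such motifs close to the start of 2 coat subunits, of the tether p115 and of the KDEL receptor that differed most with 25HC, with its paralog Kdelr1 for comparison. They run 5′ to 3′ on the gene's strand, from 150 bases before the RefSeq start to at most 10 bases past it, ending earlier where an annotated transcript begins upstream, and capitals mark the motif letters on either strand.
Copb1 chr7:114254692-114254830 minus strand: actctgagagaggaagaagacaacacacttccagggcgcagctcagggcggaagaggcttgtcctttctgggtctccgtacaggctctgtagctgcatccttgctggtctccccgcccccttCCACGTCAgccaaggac
Copb2 chr9:98563581-98563740 plus strand: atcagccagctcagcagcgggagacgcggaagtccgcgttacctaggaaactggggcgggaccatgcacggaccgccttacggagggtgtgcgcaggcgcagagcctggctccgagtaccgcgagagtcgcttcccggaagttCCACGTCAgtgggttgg
Uso1 chr5:92137788-92137947 plus strand: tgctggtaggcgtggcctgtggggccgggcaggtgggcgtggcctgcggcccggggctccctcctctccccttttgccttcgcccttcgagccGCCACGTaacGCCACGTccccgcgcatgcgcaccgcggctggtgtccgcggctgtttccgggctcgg
Kdelr3 chr15:79516258-79516417 plus strand: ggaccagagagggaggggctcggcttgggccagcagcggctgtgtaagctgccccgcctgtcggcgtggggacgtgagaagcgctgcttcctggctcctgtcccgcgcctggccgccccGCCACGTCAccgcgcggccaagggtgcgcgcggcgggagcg
Kdelr1 chr7:45872690-45872791 plus strand: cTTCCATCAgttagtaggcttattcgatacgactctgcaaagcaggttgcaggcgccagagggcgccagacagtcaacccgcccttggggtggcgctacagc
The capitals in Copb1 and Copb2 are the UPRE core on the opposite strand, starting 28 and 7 bases before the start. Uso1 holds the Golgi stress element at 2 places, 57 and 47 bases before the start. In Kdelr3 the UPRE core and the Golgi stress element overlap within 31 bases of the start, while the capitals in Kdelr1 are a CARE motif 149 bases before it.

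25HC raised most of these genes in resting B6 macrophages. Of the 40, 29 were higher and 0 lower in 25HC-treated than in untreated B6 at rest (edgeR quasi-likelihood test, Benjamini-Hochberg adjusted p below 0.05 over all tested genes), where 14.8% of all tested genes were higher and 11.4% lower. The median log2 fold change was 0.59 over the 40 genes and -0.01 over all tested genes. With PAM3, 24 were higher and 4 lower in 25HC-treated than in untreated B6, where 21.5% of tested genes were higher and 23.6% lower, and the medians were 0.40 for the 40 genes and -0.04 for all. These 2 comparisons share no library but come from the same 3 mice, as far as the numbers mark animals. The 21 genes higher in both were 72.4% of the resting list and 87.5% of the PAM3 list, where over all tested genes the 787 higher in both were 41.7% and 28.7% of these lists. Of the 40, 72.5% were called higher at rest and 60% with PAM3, against 14.8% and 21.5% of all tested genes. A larger overlap would follow from these rates alone. Without library 2 of every group, 30 of the 40 genes were higher and 0 lower with 25HC at rest, and 24 were higher and 4 lower with 25HC among PAM3-stimulated cells. In bulk RNA, fewer cells of a type and less RNA per cell cannot be told apart.

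**Figure D1:**
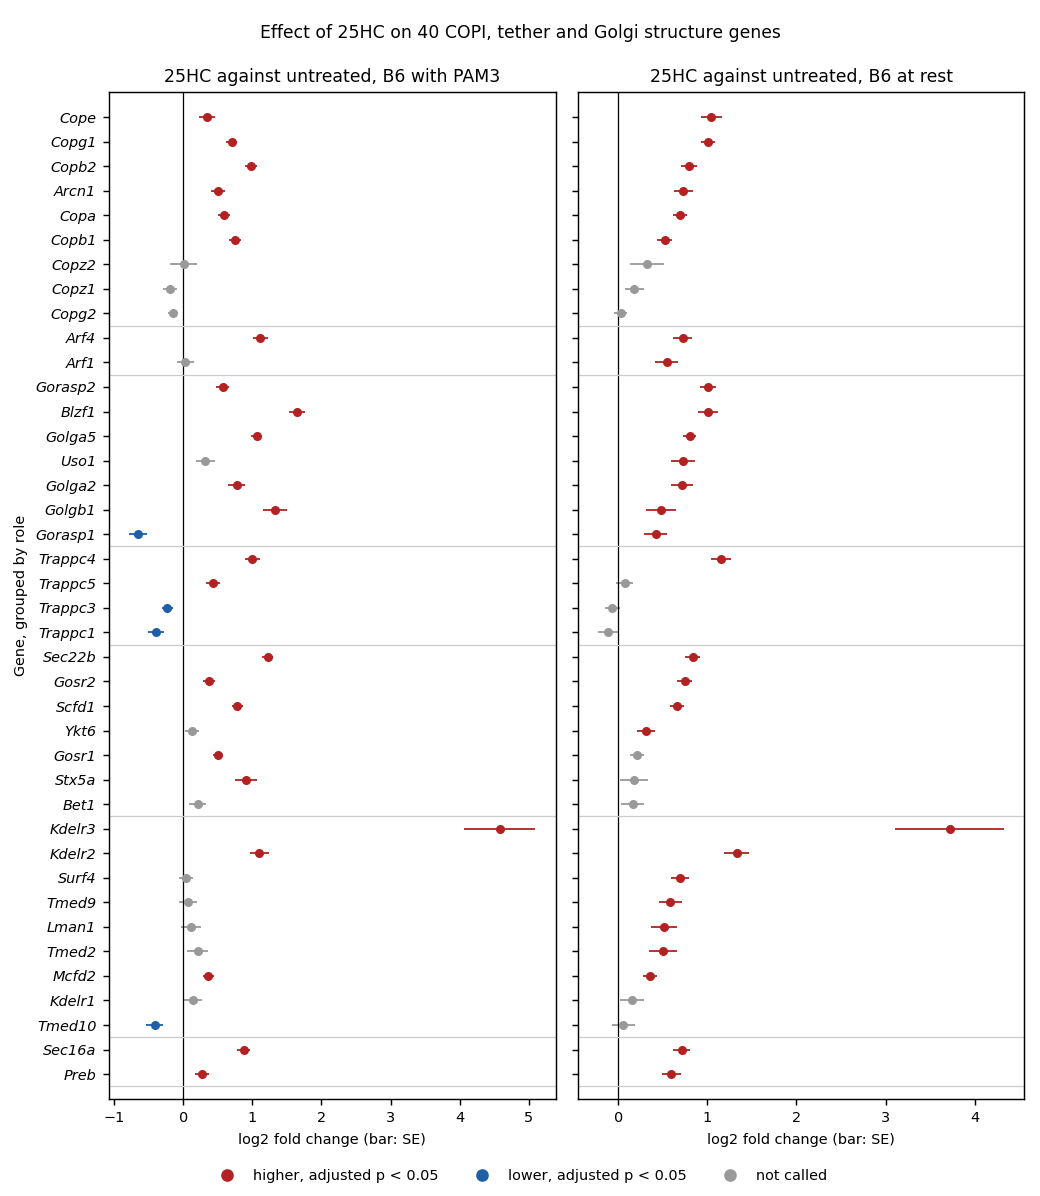
Log2 fold change of 25HC-treated over untreated B6 macrophages for each of the 40 genes, with PAM3 (left) and at rest (right), grouped by role with lines between roles. Bars are standard errors, red and blue mark genes called higher and lower, and at rest 29 genes are red and 0 blue, while with PAM3 24 are red and 4 blue.

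In the COPI coat, 6 of 9 subunits were higher with 25HC at rest, namely Copa, Copb1, Copb2, Copg1, Cope and Arcn1, and the same 6 were higher with PAM3, with 0 lower in either state. Copg1 (ENSMUSG00000030058, chr6:87887814-87913595, plus strand), the γ1 subunit, had 235, 218 and 235 CPM in 25HC-treated B6 at rest, against 120.1, 109 and 112 CPM in untreated B6 at rest. With PAM3 it had 289.7, 302 and 296 CPM in 25HC-treated cells, against 173, 179 and 194 CPM in untreated cells. Treated and untreated libraries did not overlap in either state. The log2 fold change was 1.01 ± 0.08 at rest (SE, edgeR adjusted p = 3.9e-06) and 0.70 ± 0.08 with PAM3 (edgeR adjusted p = 8.8e-06). Copb2 (ENSMUSG00000032458, chr9:98563721-98588382, plus strand), the β′ subunit that reads retrieval signals in cargo tails, had 308, 281 and 313 CPM with 25HC at rest, against 181, 161 and 179 CPM without it. With PAM3, Copb2 had 439.8, 426 and 447 CPM in treated cells, against 214, 207 and 245 CPM in untreated cells. All treated libraries stood above all untreated ones, and the log2 fold change was 0.79 ± 0.09 at rest (edgeR adjusted p = 4.3e-05) and 0.98 ± 0.09 with PAM3 (edgeR adjusted p = 1.2e-06). Cope (ENSMUSG00000055681, chr8:70302518-70312993, plus strand), the ε subunit, had 151, 144 and 156 CPM with 25HC at rest, against 71.0, 79.6 and 67.6 CPM without it. With PAM3 its values were 159, 207 and 163 CPM in treated cells, against 116, 145 and 154 CPM in untreated cells. The treated libraries were about as far above the untreated ones at rest as for Copg1, whereas with PAM3 they stood only just above them. The log2 fold change of Cope was 1.05 ± 0.12 at rest (edgeR adjusted p = 5.3e-05) and 0.35 ± 0.12 with PAM3 (edgeR adjusted p = 0.0247), and the PAM3 call was lost without untreated library 1 or without treated library 2. For the other 3 raised subunits, Copa (α), Copb1 (β) and Arcn1 (δ), log2 fold changes ran from 0.52 to 0.73 at rest and from 0.50 to 0.75 with PAM3.

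The remaining 3 coat genes, Copg2, Copz1 and Copz2, were not called for 25HC in either state. Copg2, the γ2 subunit, had 59.2, 62.0 and 55.4 CPM with 25HC at rest, against 59.9, 55.6 and 57.7 CPM without it, and 58.0, 59.6 and 57.9 CPM with 25HC and PAM3, against 66.2, 64.4 and 63.6 CPM with PAM3 alone. Its log2 fold change was 0.03 ± 0.07 at rest and -0.15 ± 0.07 with PAM3, past the threshold in neither (edgeR adjusted p = 0.79 and 0.0998). Measured per kilobase of exon, Copg1 made up 64.4 ± 2.22% of the 2 γ genes in 25HC-treated B6 at rest, against 47.9 ± 0.383% in untreated B6 at rest (SD, n = 3). With PAM3 the share was 70.2 ± 0.261% in treated cells, against 56.6 ± 1.95% in untreated cells, and the ranges of treated and untreated libraries did not overlap in either state. The level of this share depends on the merged exon lengths, 11011 bases for Copg1 and 5121 for Copg2. In CPM, Copg1 averaged 114 and Copg2 57.7 in untreated B6 at rest. Of the ζ genes, Copz1 averaged 117 ± 5.13 CPM with 25HC at rest and 103 ± 6.91 CPM without it, and Copz2 averaged 14.1 ± 2.06 and 11.2 ± 2.50 CPM in the same groups (SD, n = 3). With the mouse number as a block, Copz2 at rest passed the threshold, with a log2 fold change of 0.34 (edgeR adjusted p = 0.0487). Without that block its adjusted p was 0.233.

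Both ARF GTPases were higher with 25HC at rest, and Arf4 alone was called with PAM3. Arf4 (ENSMUSG00000021877, chr14:26638074-26665084, plus strand), which acts at early Golgi membranes, had 171, 154 and 167 CPM with 25HC at rest, against 96.5, 97.3 and 104 CPM without it. In PAM3-stimulated cells it had 302, 288 and 295 CPM after 25HC, against 139, 116 and 154 CPM without 25HC. No treated library reached down to an untreated one, and the log2 fold change was 0.72 ± 0.10 at rest (edgeR adjusted p = 3.4e-04) and 1.12 ± 0.10 with PAM3 (edgeR adjusted p = 1.8e-06). Arf1, the GTPase that recruits coatomer and the most abundant member per kilobase at 210.1 CPM per kb over all libraries, averaged 403 ± 26.6 CPM with 25HC at rest and 277 ± 36.7 CPM without it (SD, n = 3, log2 fold change 0.54 ± 0.13, edgeR adjusted p = 0.006). With PAM3 it averaged 558 ± 30.3 CPM in treated cells and 546 ± 63.6 CPM in untreated cells, a log2 fold change of 0.03 ± 0.12 (edgeR adjusted p = 0.86). The 95% interval of the Arf1 difference with PAM3 ran from -0.23 to 0.30 on the log2 scale.

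Every one of the 7 golgins, GRASP proteins and p115 was higher with 25HC at rest, and with PAM3 5 were higher and 1, Gorasp1, was lower. Golga5 (ENSMUSG00000021192, chr12:102469135-102497907, plus strand), golgin-84, a tether for vesicles that move within the Golgi, had 84.4, 84.8 and 85.2 CPM with 25HC at rest, against 45.3, 50.5 and 50.1 CPM without it. Under PAM3 it had 99.9, 103 and 102 CPM in treated cells, against 48.9, 48.4 and 48.3 CPM in untreated cells. Each group of Golga5 values was tight and the treated ones lay far above, with log2 fold changes of 0.80 ± 0.08 at rest (edgeR adjusted p = 2.0e-05) and 1.06 ± 0.08 with PAM3 (edgeR adjusted p = 2.9e-07). Blzf1 (ENSMUSG00000026577, chr1:164289800-164307489, minus strand), golgin-45, the partner of GRASP55 on medial cisternae, had 31.9, 27.0 and 28.5 CPM with 25HC at rest, against 13.2, 15.0 and 15.3 CPM without it. After PAM3 it had 63.3, 60.9 and 65.3 CPM in treated cells, against 23.1, 19.2 and 18.3 CPM in untreated cells. The treated libraries were higher in both states, and with PAM3 by more, at a log2 fold change of 1.65 ± 0.12 (edgeR adjusted p = 2.5e-07) beside 1.01 ± 0.11 at rest (edgeR adjusted p = 5.3e-05). Golgb1 (giantin) averaged 425 ± 46.2 CPM with 25HC and PAM3 and 169.6 ± 39.6 CPM with PAM3 alone (SD, n = 3, log2 fold change 1.33 ± 0.17, edgeR adjusted p = 2.4e-05). At rest Golgb1 averaged 221 ± 10.8 CPM in treated cells and 159 ± 26.0 CPM in untreated cells, an edgeR adjusted p of 0.0491 that became 0.0579 with the mouse number as a block, and the call was also lost on leaving out any of the 6 libraries except untreated library 2. Golga2 (GM130) had log2 fold changes of 0.72 ± 0.12 at rest and 0.78 ± 0.12 with PAM3. Uso1 (p115) was higher at rest, at 0.73 ± 0.14, and with PAM3 its value of 0.32 ± 0.14 had an edgeR adjusted p of 0.0649 without and 0.0299 with the block.

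The 2 GRASP genes went opposite ways with PAM3. Gorasp2 (ENSMUSG00000014959, chr2:70661576-70712636, plus strand), GRASP55 of medial cisternae, had 209.9, 219.9 and 218 CPM with 25HC and PAM3, against 141, 140.4 and 155 CPM with PAM3 alone. Gorasp1 (ENSMUSG00000032513, chr9:119925257-119937565, minus strand), GRASP65 of cis cisternae, had 30.2, 39.7 and 33.3 CPM with 25HC and PAM3, against 45.7, 60.2 and 56.4 CPM with PAM3 alone. All 3 treated libraries were above the untreated ones for Gorasp2 and below them for Gorasp1, with log2 fold changes of 0.57 ± 0.09 (edgeR adjusted p = 1.6e-04) and -0.65 ± 0.13 (edgeR adjusted p = 7.1e-04). At rest both were higher with 25HC. Gorasp2 had 141, 118 and 136 CPM in treated cells, against 72.3, 58.7 and 65.4 CPM in untreated cells. Gorasp1 had 32.7, 37.9 and 34.1 CPM in treated cells, against 25.3, 28.5 and 24.3 CPM in untreated cells. The groups did not overlap for either gene, with log2 fold changes of 1.01 ± 0.09 (edgeR adjusted p = 1.8e-05) and 0.42 ± 0.13 (edgeR adjusted p = 0.0253). The resting Gorasp1 call was lost on leaving out any of the 6 libraries except untreated library 2. Gorasp2 made up 86.3 ± 1.40% of both GRASP genes per kilobase with 25HC and PAM3, against 73.0 ± 2.80% with PAM3 alone, and 79.0 ± 2.87% with 25HC at rest, against 71.4 ± 3.63% in untreated cells at rest (SD, n = 3). Gorasp1 overlaps Wdr48 on the opposite strand, and Wdr48 averaged 117 CPM with 25HC and PAM3 and 76.8 CPM with PAM3 alone, opposite to Gorasp1.

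**Figure D2:**
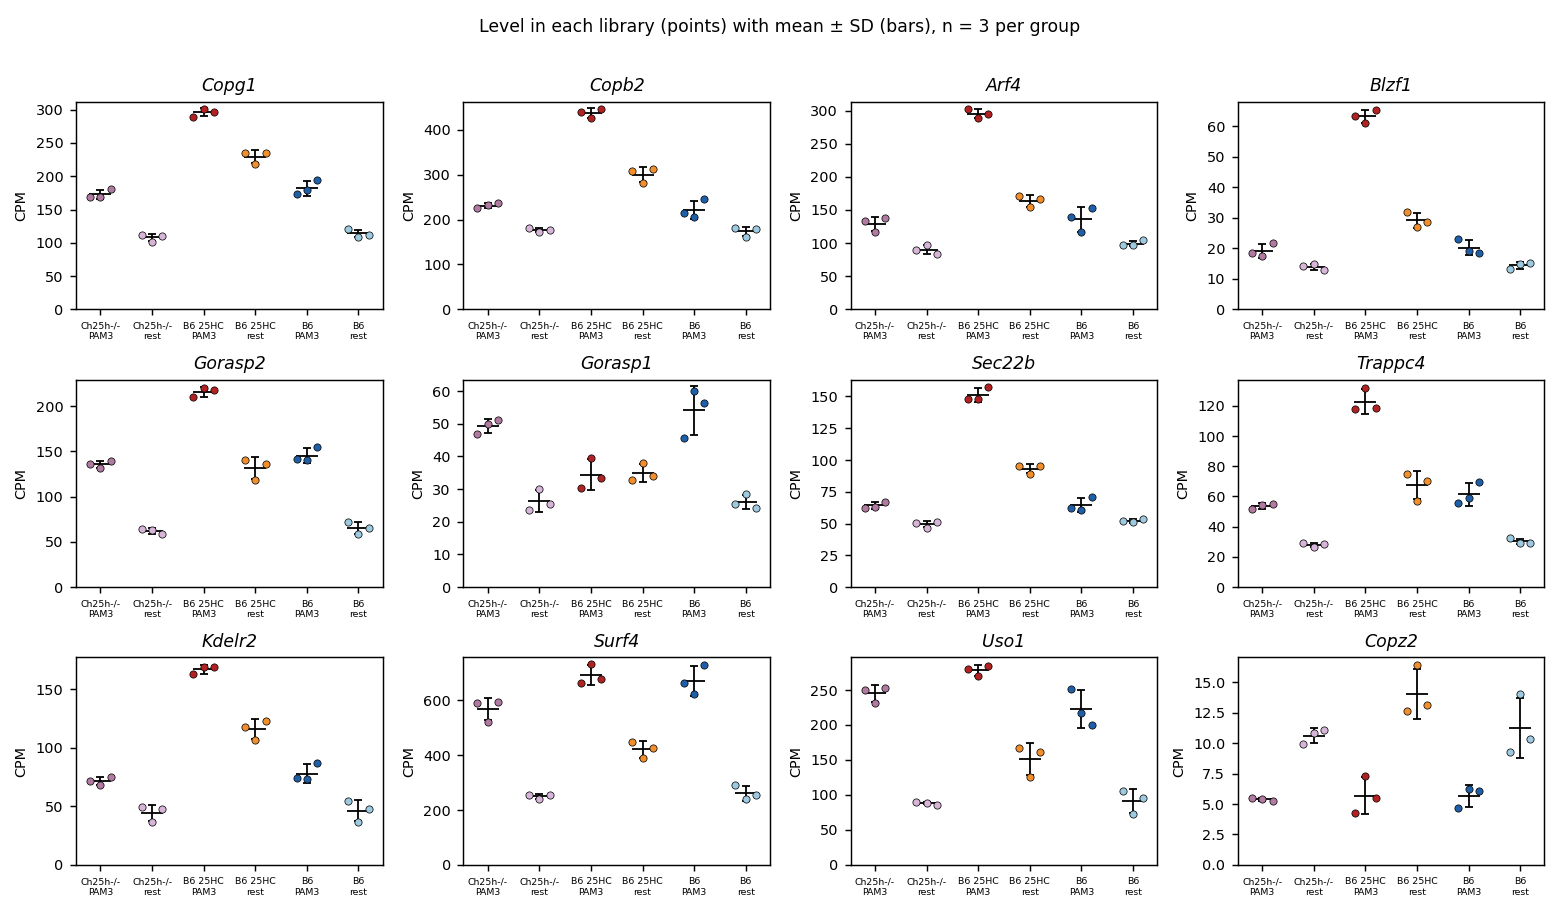
CPM of 12 of the genes in each of the 18 libraries, with the mean and SD of 3 libraries per group. Copg1, Copb2, Arf4, Blzf1, Gorasp2, Sec22b, Trappc4 and Kdelr2 stand highest in the 25HC and PAM3 group, Gorasp1 is lower there than with PAM3 alone, Surf4 is about level between those groups, and Copz2 is low in all PAM3 groups.

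The TRAPP subunits divided. Trappc4 (ENSMUSG00000032112, chr9:44403698-44407600, minus strand), a core subunit, was the only one of 4 called at rest. It had 74.7, 57.2 and 70.5 CPM with 25HC at rest, against 32.2, 29.5 and 29.3 CPM without it. With PAM3 it had 118, 132 and 118 CPM in treated cells, against 55.4, 58.8 and 69.9 CPM in untreated cells. Treated libraries were clear of untreated ones in both states, at log2 fold changes of 1.15 ± 0.11 (edgeR adjusted p = 2.0e-05) and 1.00 ± 0.11 (edgeR adjusted p = 5.7e-06). Trappc4 overlaps Rps25 on the opposite strand, which averaged 62.3 CPM with 25HC and 56.7 CPM without it at rest and was not called (edgeR adjusted p = 0.349). The other three subunits lay between -0.11 and 0.07 at rest. With PAM3, Trappc5 was higher at 0.43 ± 0.10 (edgeR adjusted p = 0.00192), while Trappc1 at -0.39 ± 0.11 (edgeR adjusted p = 0.0108) and Trappc3 at -0.23 ± 0.08 (edgeR adjusted p = 0.0338) were lower. Trappc3 missed the threshold with the mouse block (edgeR adjusted p = 0.0519). Both lower calls were lost without untreated PAM3 library 3 or without treated PAM3 library 1, and the Trappc3 call also without untreated library 2 or treated library 3.

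Of the 7 fusion proteins, 4 were higher with 25HC at rest and 5 with PAM3, and 0 were lower. Sec22b (ENSMUSG00000027879, chr3:97901190-97923276, plus strand), the SNARE on vesicles between ER and Golgi, had 95.0, 89.1 and 95.6 CPM with 25HC at rest, against 51.7, 51.1 and 53.9 CPM without it. In PAM3-stimulated cells it had 148, 148 and 158 CPM after 25HC, against 62.4, 60.5 and 71.2 CPM without 25HC. The lowest treated library was far above the highest untreated one in both states. The log2 fold change was 0.83 ± 0.08 at rest (edgeR adjusted p = 2.1e-05) and 1.23 ± 0.08 with PAM3 (edgeR adjusted p = 1.5e-07). Scfd1 (ENSMUSG00000020952, chr12:51377510-51450101, plus strand), the SLY1 protein that helps syntaxin 5 complexes assemble, had 103, 100.4 and 105 CPM with 25HC and PAM3, against 64.7, 57.1 and 57.6 CPM with PAM3 alone. All treated libraries exceeded the untreated ones, at 0.78 ± 0.08 (edgeR adjusted p = 4.2e-06), and the resting log2 fold change was 0.66 ± 0.08. Gosr2 (membrin) was higher in both states, at 0.74 ± 0.08 at rest and 0.38 ± 0.08 with PAM3. Stx5a, the syntaxin of this fusion step, was called only with PAM3. It had 130.3, 133 and 138 CPM with 25HC and PAM3, against 66.3, 68.9 and 79.3 CPM with PAM3 alone. At rest Stx5a had 92.6, 115 and 94.9 CPM with 25HC, against 71.4, 114 and 80.9 CPM without it. The resting groups overlapped, since untreated library 2 was nearly as high as the highest treated one. The log2 fold change was 0.91 ± 0.16 with PAM3 (edgeR adjusted p = 3.5e-04) and 0.18 ± 0.16 at rest (edgeR adjusted p = 0.432). Gosr1 (GS28) had 0.50 ± 0.08 with PAM3 (edgeR adjusted p = 9.2e-05) and 0.21 ± 0.08 at rest (edgeR adjusted p = 0.0537). The SNARE Ykt6 was called only at rest, at 0.31 ± 0.10, and the call was lost without untreated library 2 or 3 or treated library 1 or 3. Bet1, another SNARE of this route, was called in neither state, at 0.16 ± 0.13 at rest and 0.21 ± 0.13 with PAM3.

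Among the 9 retrieval and cargo receptors, 7 were higher with 25HC at rest, whereas with PAM3 3 were higher and 1 was lower. The KDEL receptors return ER chaperones that have escaped to the Golgi. Kdelr2 (ENSMUSG00000079111, chr5:143403838-143421901, plus strand) had 118, 107 and 123 CPM with 25HC at rest, against 54.2, 36.4 and 48.0 CPM without it. Under PAM3 it had 163, 169 and 169 CPM in treated cells, against 73.9, 73.1 and 87.0 CPM in untreated cells. The groups were well apart, and apart from Kdelr3 the resting log2 fold change of 1.33 ± 0.14 (edgeR adjusted p = 3.5e-05) was the largest of the 40. With PAM3 it was 1.10 ± 0.14 (edgeR adjusted p = 2.0e-05). Kdelr3 (ENSMUSG00000010830, chr15:79516411-79527739, plus strand) was scarce, with 18, 16 and 20 counts with 25HC at rest, against 2, 2 and 3 counts without it. After PAM3 it had 74, 235 and 83 counts in treated libraries, against 1, 14 and 1 counts in untreated ones. The second library of each PAM3 group is the deepest of its group, and in CPM all 6 treated libraries (0.599 to 1.92 CPM) were above all 6 untreated ones (0.0255 to 0.0996 CPM). Pooled over libraries, the ratio of scaled counts was 14.2 at rest (95% exact interval 6.42 to 36.9, from 54 and 7 counts) and 22.8 with PAM3 (13.9 to 40.3, from 392 and 16 counts), intervals that cover counting error only. The edgeR adjusted p for Kdelr3 was 7.8e-04 at rest and 8.4e-06 with PAM3. Its highest value in any library without 25HC was 0.239 CPM, so it passed the filter on low counts only through the 25HC-treated libraries. Its calls for 25HC, which are included in the 29 and 24 genes called higher, are therefore descriptions and no added support. Kdelr3 overlaps Ddx17 on the opposite strand, and Ddx17 averaged 369 CPM with 25HC at rest and 366 CPM without it (edgeR adjusted p = 0.955). The 8 fibroblast and mesenchymal markers summed to 2.00 to 3.37 CPM with 25HC at rest, against 3.93 to 5.77 CPM without it, and to 7.01 to 7.60 CPM with 25HC and PAM3, against 8.81 to 11.8 CPM with PAM3 alone. After 25HC, Kdelr3 was also higher with PAM3 than at rest, at 1.67 and 0.652 CPM on average (edgeR adjusted p = 0.0125), and the marker sum was higher there too. In that sum Pdgfrb had 1.97 to 2.46 CPM with PAM3, against 0.257 to 0.300 CPM at rest. Fap went the other way, at 0.412 to 0.544 CPM against 0.708 to 0.749 CPM. The part of these markers in Kdelr3 was not tested.

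Kdelr1 showed no call in either state. It had 117, 139 and 117 CPM with 25HC at rest, against 98.5, 131 and 105 CPM without it, and 108, 129 and 112 CPM with 25HC and PAM3, against 94.4, 106 and 118 CPM with PAM3 alone. The groups overlapped in both states, at 0.16 ± 0.14 (edgeR adjusted p = 0.421) and 0.14 ± 0.14 (edgeR adjusted p = 0.446). Kdelr2 made up 48.7 ± 4.20% of the KDEL receptor genes per kilobase with 25HC at rest, against 30.0 ± 7.15% without it, and 59.1 ± 1.99% with 25HC and PAM3, against 43.0 ± 1.60% with PAM3 alone (SD, n = 3). With 25HC and PAM3 it stood above Kdelr1, at 40.2 ± 1.98%, whereas with PAM3 alone Kdelr1 was the larger at 57.0 ± 1.57%. Kdelr3 stayed at or below 0.886% of the 3 genes in every library.

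**Figure D3:**
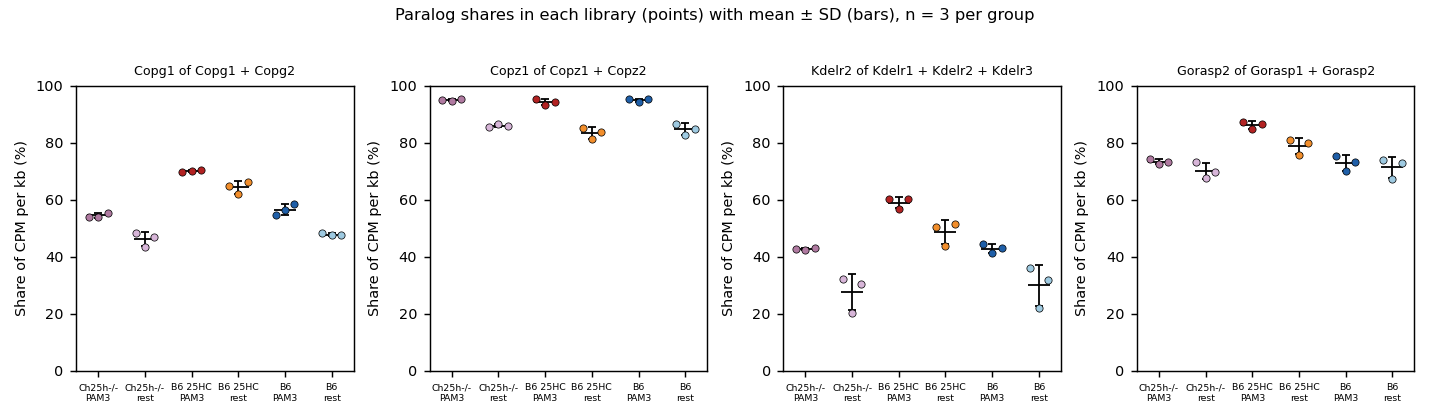
Share of each paralog family, in CPM per kilobase of exon, that Copg1, Copz1, Kdelr2 and Gorasp2 made up in each of the 18 libraries, with mean and SD of 3 libraries per group. The shares of Copg1, Kdelr2 and Gorasp2 are higher with 25HC than without it both with PAM3 and at rest, and the share of Copz1 is higher in all 3 PAM3 groups than in the resting ones.

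The other cargo receptors were raised mainly at rest. Surf4, a receptor for soluble secreted cargo and second among the 40 genes per kilobase at 145 CPM per kb, had 449, 389 and 427 CPM with 25HC at rest, against 290.3, 238 and 255 CPM without it. With PAM3 it had 663, 732 and 679 CPM in treated cells, against 662, 622 and 728 CPM in untreated cells. The groups were apart at rest and overlapped with PAM3, with log2 fold changes of 0.69 ± 0.10 (edgeR adjusted p = 4.7e-04) and 0.04 ± 0.10 (edgeR adjusted p = 0.759). The p24 proteins Tmed2 and Tmed9, which pack cargo into COPI and COPII vesicles, and the lectin Lman1 were likewise called at rest only, at 0.51, 0.59 and 0.51, beside 0.21, 0.06 and 0.11 with PAM3. The resting calls of Tmed2 and Lman1 were lost without untreated library 2 or without treated library 1 or 3. Mcfd2, the partner of Lman1 in the export of coagulation factors, was higher in both states at 0.36 ± 0.08 and 0.36 ± 0.08. Tmed10, the third p24 gene here, was lower with 25HC and PAM3, averaging 254 ± 13.0 CPM against 338 ± 26.8 CPM with PAM3 alone (SD, n = 3, log2 fold change -0.41 ± 0.12, edgeR adjusted p = 0.0133). That call was lost without untreated PAM3 library 3 or treated PAM3 library 1, and at rest Tmed10 stood at 0.06 ± 0.12.

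Both ER exit site factors were higher with 25HC in both states. Sec16a (ENSMUSG00000026924, chr2:26409431-26445216, minus strand), the scaffold of exit sites, had 355, 314 and 365 CPM with 25HC and PAM3, against 201, 194 and 168 CPM with PAM3 alone. All treated libraries were above the untreated ones, at 0.87 ± 0.10 (edgeR adjusted p = 7.0e-06), and the resting log2 fold change was 0.72 ± 0.10 (edgeR adjusted p = 2.1e-04). Preb, the SEC12 exchange factor that starts COPII assembly, had 0.60 ± 0.10 at rest (edgeR adjusted p = 9.6e-04) and 0.27 ± 0.10 with PAM3. The PAM3 call of Preb, at an edgeR adjusted p of 0.0415, became 0.0574 with the mouse block and was lost without untreated library 1 or any of the 3 treated libraries.

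The effect of 25HC itself differed between PAM3 and rest for 11 of the 40 genes by the interaction test, which compares the 25HC difference with PAM3 to that at rest. It was larger with PAM3 for 4 (10% of the 40, where 12.5% of all tested genes were called that way) and smaller or reversed for 7 (17.5%, against 15.8%), shares close to those of all genes. Gorasp1 differed most, by -1.07 ± 0.18 on the log2 scale (edgeR adjusted p = 0.00114), since it was higher with 25HC at rest and lower with 25HC and PAM3. Cope differed by -0.70 ± 0.17 (edgeR adjusted p = 0.00769) and Surf4 by -0.65 ± 0.15 (edgeR adjusted p = 0.00598). Golgb1 at 0.85 ± 0.24 (edgeR adjusted p = 0.0172) and Blzf1 at 0.64 ± 0.16 (edgeR adjusted p = 0.00977) differed in the other direction. These 5 calls held on leaving out any 1 library, and without library 2 of every group 3 genes were called higher and 11 lower. The calls for Stx5a, Sec22b, Gorasp2, Gosr2, Arf1 and Tmed9 did not, and Arf4 was called with the mouse block only (edgeR adjusted p = 0.0474).

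Most of these genes were also higher with PAM3. In untreated B6, 30 of 40 were higher and 1 lower with PAM3 than at rest, where 31.3% of all tested genes were higher and 30.8% lower, and the median log2 fold change was 0.52 over the 40 genes and 0.00 over all. This comparison uses the same untreated resting libraries as that of 25HC at rest. Surf4 had 662, 622 and 728 CPM with PAM3, against 290.3, 238 and 255 CPM at rest, the largest rise of the 40 at 1.36 ± 0.11 (edgeR adjusted p = 7.9e-08). Lman1 had 218, 190.2 and 194 CPM with PAM3, against 93.4, 62.6 and 87.3 CPM at rest, at 1.31 ± 0.14 (edgeR adjusted p = 2.1e-06). Uso1 had 252, 217 and 199.6 CPM with PAM3, against 106, 72.4 and 96.1 CPM at rest, at 1.28 ± 0.14 (edgeR adjusted p = 1.7e-06). PAM3 and resting libraries were apart for all 3 genes. Arcn1 had 349.7, 334 and 327 CPM with PAM3, against 196, 150.3 and 190.2 CPM at rest. Gosr2 had 168, 175 and 187 CPM with PAM3, against 111, 106 and 108 CPM at rest. Neither gene's groups overlapped, at 0.91 ± 0.10 and 0.70 ± 0.08. By role, 7 of 9 coat genes, both ARF genes, 5 of 7 golgins and GRASP genes, 1 of 4 TRAPP genes, 6 of 7 fusion genes, 7 of 9 receptors and both exit site genes rose. Golga5 did not pass the test in untreated B6, with 48.9, 48.4 and 48.3 CPM with PAM3 against 45.3, 50.5 and 50.1 CPM at rest.

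Copz2 was the only member lower with PAM3 in untreated B6. It averaged 5.66 ± 0.878 CPM with PAM3 and 11.2 ± 2.50 CPM at rest (SD, n = 3), and had 4.25, 7.28 and 5.53 CPM with PAM3 after 25HC, against 12.7, 16.4 and 13.1 CPM at rest after 25HC. PAM3 libraries were below resting ones with no overlap in either case, at -0.99 ± 0.20 (edgeR adjusted p = 4.5e-04) and -1.30 ± 0.20 (edgeR adjusted p = 4.8e-05). Its paralog Copz1 was higher with PAM3, at 0.78 ± 0.10 in untreated B6, and per kilobase Copz1 made up 95.0 ± 0.605% of both ζ genes with PAM3, against 84.8 ± 2.06% at rest (SD, n = 3). Beside this, the fibroblast and mesenchymal marker sum was 8.81 to 11.8 CPM with PAM3, against 3.93 to 5.77 CPM at rest. Its genes did not move as one. Pdgfrb had 2.84 to 5.11 CPM with PAM3, against 0.216 to 0.752 CPM at rest. Fap leaned the other way, at 0.675 to 1.56 CPM against 1.44 to 2.10 CPM. The part of this sum in Copz2 was not tested.

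In 25HC-treated B6, 30 were higher and 1 lower with PAM3 than at rest, where 28.5% of tested genes were higher and 30.4% lower, with medians of 0.49 for the 40 genes and -0.02 for all. In Ch25h-/- cells, 30 were higher and 2 lower, Copz2 and Stx5a, where 29.9% were higher and 32.1% lower, with medians of 0.62 and -0.04. The Stx5a call, at -0.45 ± 0.16, was lost without Ch25h-/- PAM3 library 1 or resting library 2. Without library 2 of every group, the counts of PAM3 against rest were 29 higher and 1 lower after 25HC, 31 and 1 in Ch25h-/- and 29 and 1 in untreated B6. The 3 PAM3 responses come from separate libraries. Blzf1 had a PAM3 response of 1.12 ± 0.11 in 25HC-treated B6, 0.46 ± 0.12 in Ch25h-/- and 0.48 ± 0.11 in untreated B6. For Golgb1 these were 0.95 ± 0.17, 0.02 ± 0.17 and 0.10 ± 0.17 in the same order, and the last 2 were not called. Gorasp1 showed -0.02 ± 0.13 in 25HC-treated B6, not called, beside 0.90 ± 0.13 in Ch25h-/- and 1.05 ± 0.13 in untreated B6. Ykt6 in 25HC-treated B6 was called only with the mouse block (edgeR adjusted p = 0.0461, and 0.0541 without it).

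**Figure D4:**
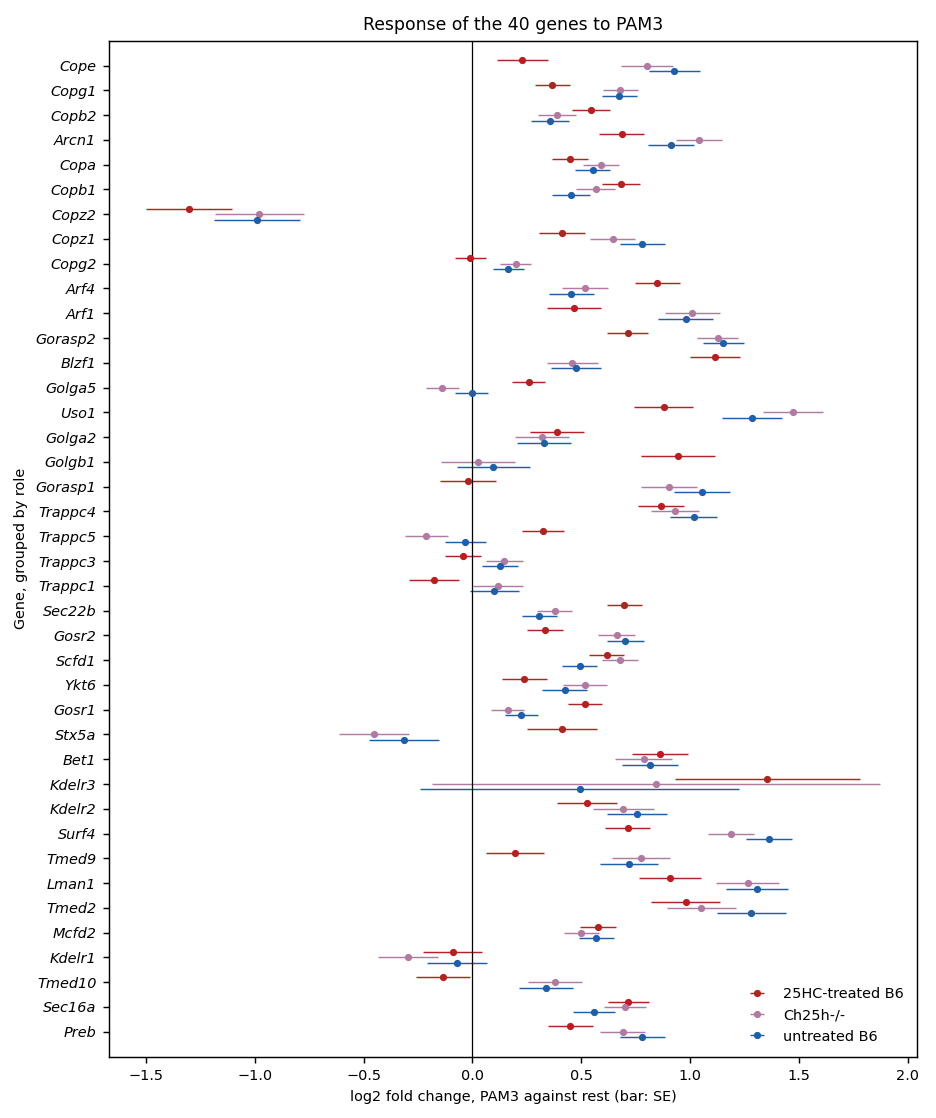
Log2 fold change of PAM3 over rest for each of the 40 genes in 25HC-treated B6, Ch25h-/- and untreated B6 macrophages, with standard errors. Points of Ch25h-/- and untreated B6 lie near each other for most genes, Copz2 is below 0 in all 3, and Gorasp1 lies near 0 after 25HC and near 1 in untreated B6.

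The summed level of the genes was highest with both agents. The 40 genes together made up 0.804 to 0.835% of counts with 25HC and PAM3, 0.630 to 0.661% with 25HC at rest, 0.574 to 0.590% with PAM3 alone and 0.400 to 0.433% in untreated B6 at rest. For 31 of the 40 the mean was highest in the 25HC and PAM3 group, while for the other 9 it was not, among them Gorasp1, Tmed10 and Copz2. The share of all tested genes with their highest mean in that group was not computed. For 25 of the 40 all 3 libraries of that group were above each of the other 15 libraries, as they were for 13.5% of all tested genes. The mouse 2 libraries of both PAM3 groups in B6 were much deeper than the rest, at 137473801 counts with 25HC and 150440297 without, and their member shares were 0.826% and 0.574%. In principal components of the 40 genes, the first carried 77.6% of the variance and ran from untreated and Ch25h-/- cells at rest (-3.64 to -2.83) through 25HC at rest and PAM3 alone (0.229 to 1.05) to 25HC with PAM3 (4.14 to 4.39). The second, with 15.7%, set PAM3 alone (-1.73 to -1.42) apart from 25HC at rest (1.03 to 1.34). On it the libraries with 25HC and PAM3 (0.982 to 1.17) and library 2 of untreated B6 at rest (1.16) lay level with 25HC at rest. Library 2 of Ch25h-/- at rest was near them at 0.897.

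25HC alone and PAM3 alone were also set against each other directly in B6. Of the 40 genes, 11 were higher and 9 lower with 25HC at rest than with PAM3 without 25HC, where 25.9% of tested genes were higher and 24.3% lower, so the shares of 27.5% and 22.5% were close to those of all genes. Golga5 was higher with 25HC, averaging 84.8 ± 0.388 CPM against 48.5 ± 0.324 CPM with PAM3 (SD, n = 3, log2 fold change 0.80 ± 0.08, edgeR adjusted p = 5.9e-07). Sec22b averaged 93.2 ± 3.59 CPM with 25HC and 64.7 ± 5.71 CPM with PAM3, at 0.53 ± 0.08 (edgeR adjusted p = 5.8e-05). Kdelr2, Kdelr3, Copb2, Copg1, Copz2, Blzf1, Golga2, Arf4 and Stx5a were the other genes higher with 25HC. Genes lower with 25HC than with PAM3 were led by Lman1 at -0.79 ± 0.14, Tmed2 at -0.77 ± 0.16, Surf4 at -0.67 ± 0.10 and Bet1 at -0.65 ± 0.13, with Gorasp1, Copz1, Uso1, Arf1 and Mcfd2 beside them. The Mcfd2 call was lost with the mouse block (edgeR adjusted p = 0.0634), and those of Arf4, Golga2, Stx5a and Mcfd2 were lost on leaving out 1 library. This comparison mixes the agent with the stimulation time of the labels.

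**Figure D5:**
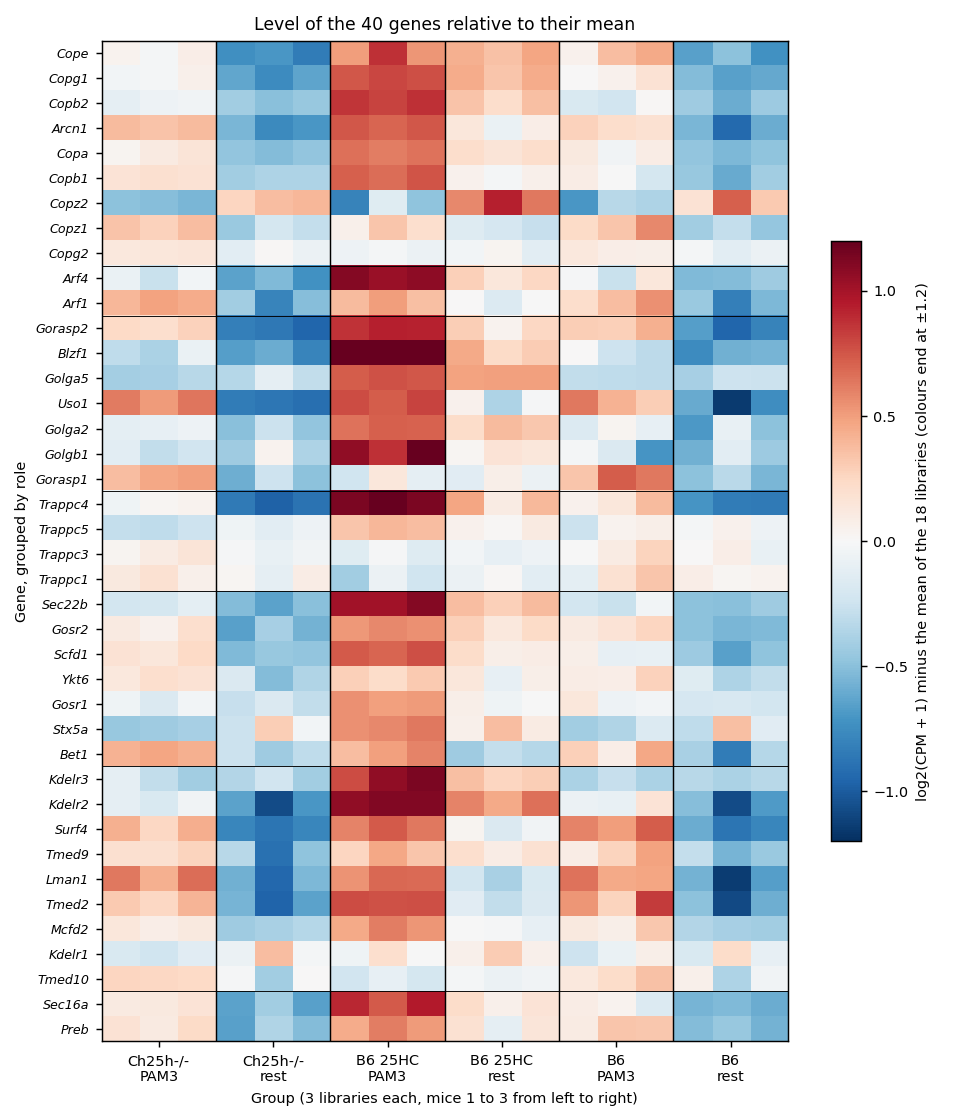
Log2(CPM + 1) of the 40 genes minus the mean over the 18 libraries, in 6 groups of 3 libraries, with genes grouped by role and colours ending at ±1.2. The 25HC and PAM3 columns are the reddest for 31 genes by group mean, a count not set against all genes. Ch25h-/- columns look like the untreated B6 columns of the same state, and Copz2 runs against the other genes between PAM3 and rest.

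Loss of Ch25h was not followed by a call in any of the 40 genes. At rest 0 were higher and 0 lower in Ch25h-/- than in B6 (edgeR quasi-likelihood test), with 0 at an unadjusted p below 0.05 and 0 by DESeq2, where 0% of all tested genes were higher and 0.00785% lower. With PAM3 0 were higher and 0 lower, with 5 at an unadjusted p below 0.05 and 0 by DESeq2, where 0.0471% of tested genes were higher and 0.126% lower. Those shares are at the adjusted threshold, and the share of all genes at an unadjusted p below 0.05 was not computed. Log2 fold changes, leaving aside the scarce Kdelr3, lay between -0.14 and 0.19 at rest and between -0.27 and 0.22 with PAM3. Their 95% intervals were within ±0.5 for 38 of 39 genes at rest and for 36 of 39 with PAM3, with outer bounds of -0.50 (Copz2) and 0.49 (Golgb1) at rest and of -0.57 (Tmed2) and 0.43 (Uso1) with PAM3. Copg1 had 169, 169 and 180.2 CPM in Ch25h-/- with PAM3, against 173, 179 and 194 CPM in B6 with PAM3, and 111, 102 and 111 CPM in Ch25h-/- at rest, against 120.1, 109 and 112 CPM in B6 at rest. Blzf1 had 18.4, 17.4 and 21.7 CPM in Ch25h-/- with PAM3, against 23.1, 19.2 and 18.3 CPM in B6, and 14.2, 14.9 and 12.8 CPM in Ch25h-/- at rest, against 13.2, 15.0 and 15.3 CPM in B6. The genotypes overlapped for both genes in both states. Over the 40 genes the libraries of the genotypes did not overlap for 1 gene at rest and for 9 with PAM3. The share of all genes without overlap was not computed. With the library number as a block across genotypes, 120 of all tested genes were higher and 248 lower in Ch25h-/- with PAM3. At rest 9 were higher and 5 lower, and in neither state were any of the 40 called. The same number marks different mice in the genotypes, so this block does not follow an animal. The PAM3 response of the 40 genes differed between genotypes for 0 of them (0 at an unadjusted p below 0.05, 0 by DESeq2), as it did for 0% of all tested genes. Ch25h itself was lower with PAM3 in untreated B6, at 1.66 to 3.55 CPM against 3.16 to 20.4 CPM at rest (log2 fold change -2.21, edgeR adjusted p = 0.00195). The genotypes were thus compared with PAM3 where B6 cells held less Ch25h RNA than at rest.

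Genes of the same pathway outside the 40 were taken from lists by function, which were also chosen with earlier results known. Their counts are to be read beside all tested genes, of which 14.8% were higher and 11.4% lower with 25HC at rest and 21.5% were higher and 23.6% lower with PAM3. Of 15 tested genes of the COPII coat and its assembly, which buds vesicles from the ER, 10 were higher and 0 lower with 25HC at rest and 9 were higher and 0 lower with PAM3, or 66.7% and 60% higher. Sec23a, of the inner coat, averaged 153 ± 6.34 CPM with 25HC and PAM3 and 54.6 ± 7.99 CPM with PAM3 alone (SD, n = 3, log2 fold change 1.49 ± 0.10), and 1.10 ± 0.10 at rest. Sec31a, of the outer coat, stood at 1.44 ± 0.08 at rest and 1.02 ± 0.08 with PAM3. Of 19 tested genes of COPI recycling, such as ARF activators and inactivators, 7 were higher and 0 lower at rest (36.8% higher), and 6 higher and 3 lower with PAM3 (31.6% and 15.8%). The 0 became 1 without untreated library 2. Gbf1, the exchange factor that activates ARF1 at the early Golgi, averaged 136 ± 4.80 CPM with 25HC at rest and 74.2 ± 3.36 CPM without it (SD, n = 3, log2 fold change 0.88 ± 0.09), and 0.64 ± 0.08 with PAM3. Arfgap3, which switches ARF1 off, stood at 0.89 ± 0.11 and 0.74 ± 0.11. Of 15 other golgins and matrix genes, 5 were higher and 1 lower at rest and 8 higher and 0 lower with PAM3, among them Acbd3 at 1.00 ± 0.10 and 1.26 ± 0.10, and Golim4 at 1.08 ± 0.20 and 1.24 ± 0.19. The 1 lower call became 2 without untreated library 1 or treated library 2 and 0 without any of the other 4 resting libraries.

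Of 18 tested TRAPP and COG tether genes outside the 40, 3 were higher and 0 lower with 25HC at rest and 4 higher and 5 lower with PAM3, and the higher shares of 16.7% and 22.2% were close to those of all genes. Of 18 other p24 and cargo receptor genes, 5 were higher and 0 lower at rest and 3 higher and 6 lower with PAM3. The 5 became 3 without untreated library 3 or without treated library 1 or 3, the 0 became 1 without untreated library 2, and the 6 became 2 without untreated PAM3 library 3 or treated PAM3 library 1 and 3 without treated PAM3 library 3. Of 18 glycan processing enzymes of the Golgi lumen, 2 were higher and 7 lower at rest and 2 higher and 6 lower with PAM3, so lower calls outnumbered higher ones, and at rest the 7 became 4 without treated library 1 or 3 and the 2 became 1 without either of these or without untreated library 2. Of 16 genes for sterol and phosphoinositide handling at contacts of ER and Golgi, 1 was higher and 2 lower at rest and 3 higher and 4 lower with PAM3. At rest the 1 became 2 without untreated library 1, and the 2 became 1 without untreated library 3 or treated library 1 or 3. Osbp, the sterol carrier at these contacts and itself a protein that binds 25HC, averaged 114 ± 4.18 CPM with 25HC at rest and 81.7 ± 5.77 CPM without it (SD, n = 3, log2 fold change 0.48 ± 0.07), and 0.67 ± 0.07 with PAM3.

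Of 14 transcription factors of the secretory pathway and their proteases, 5 were higher and 0 lower with 25HC at rest and 6 higher and 0 lower with PAM3 (35.7% and 42.9% higher). With PAM3 the 0 became 1 without untreated library 1 or 2 and 2 without treated library 2. Atf4, a factor of the integrated stress response, averaged 349 ± 60.4 CPM with 25HC at rest and 106 ± 20.3 CPM without it (SD, n = 3, log2 fold change 1.72 ± 0.19), and 0.92 ± 0.19 with PAM3. Creb3, a membrane-bound factor cleaved at the Golgi and known to raise Arf4 in other cells, averaged 103 ± 12.5 CPM with 25HC at rest and 48.5 ± 2.78 CPM without it (SD, n = 3, log2 fold change 1.09 ± 0.12), and 0.64 ± 0.12 with PAM3. Xbp1, whose protein binds the UPRE core, stood at 0.86 ± 0.11 at rest and 0.37 ± 0.11 with PAM3. Whether any of these factors acts on the 40 genes was not tested.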

How the data were processed

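The deposited table holds raw read counts per gene made by the authors, 30530 genes in 18 libraries of polyadenylated RNA, each of which entered the fits. Per the submitters' processing notes, FastQC 0.11.9, GSNAP, featureCounts of Subread 1.5.2 and edgeR 3.26.8 were used with GRCm38 (mm10). The kit was stranded per the labels, but how featureCounts treated strand and multiply aligned reads, and which annotation it used, are points not given in the sources used here. Genes that overlap another or have close copies are therefore uncertain. Gene positions are those of GENCODE M21 (GRCm38), in which 30118 identifiers and all 40 members were found, and kilobases are of merged exons. Promoters are from RefSeq (GRCm38.p6). Proteins were not analysed here.

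Counts were tested with edgeR 4.0.16 in R 4.3.3 (limma 3.58.1, DESeq2 1.42.0), with figures and tables from Python 3.11.15, numpy 2.4.6, pandas 2.3.3, scipy 1.17.1 and matplotlib 3.10.9. The filterByExpr rule chose the genes, which were scaled by TMM and fitted with 1 mean per group over all 18 libraries, with 12 residual degrees of freedom. The 10 comparisons used the two-sided quasi-likelihood test with robust moderation. P-values were adjusted by Benjamini-Hochberg across all 12741 tested genes, and 0.05 was the threshold. The procedure was tested on simulated data. Each SE was derived from the fold change and the root of its F statistic. The members, lists and alternatives were chosen with earlier results of these data known, and the direct comparison of 25HC with PAM3 was added after the data were seen. By rule, values in every library were to be given for at most 8 called members of smallest adjusted p per comparison and for paralogs. Some comparisons give means or fold changes instead, and a few other members were named after their values were seen.

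The libraries of each group are numbered 1 to 3, and within a genotype the same number was taken to mark the same animal. Deviations from group means correlated between 25HC-treated and untreated libraries of the same number at r = 0.534, 0.644 and 0.523 at rest. With PAM3 these values were 0.569, 0.404 and -0.343. Between Ch25h-/- and B6 libraries of the same number, which are different animals, the values were 0.692, 0.772 and 0.477 for resting cells, and 0.414, 0.549 and 0.124 for PAM3. What libraries of the same number share across genotypes was not tested. P-values measure the spread among 3 libraries per group, taken to be cultures of 3 mice per genotype. No 2 libraries agreed within sampling noise. The depth, 14040513 to 150440297 counts, leaves counting error small for all members but Kdelr3. Alternatives were no filter, a filter at 1 CPM, DESeq2 size factors, the DESeq2 Wald test, only the groups compared, the mouse number as block, replicate 2 left out of every group and each library left out in turn. The block was the mouse within a genotype, and for comparisons of genotypes the library number alone.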

Additional observations from a re-analysis of the deposited data

Results flagged for a closer look

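For 11 of the 40 genes the effect of 25HC differed between PAM3-stimulated and resting B6 macrophages by the interaction test in edgeR, here as the log2 effect with PAM3 minus that at rest. It was lower with PAM3 for Gorasp1 by -1.07 (edgeR adjusted p = 0.00114), for Cope by -0.70 (0.00769), for Surf4 by -0.65 (0.00598), for Tmed9 by -0.52 (0.0488), for Arf1 by -0.51 (0.0412), for Gorasp2 by -0.44 (0.0213) and for Gosr2 by -0.37 (0.0318). It was higher with PAM3 for Golgb1 by 0.85 (0.0172), for Stx5a by 0.73 (0.0274), for Blzf1 by 0.64 (0.00977) and for Sec22b by 0.39 (0.0185), with edgeR adjusted p in parentheses. Of the 40 genes 10% were called higher and 17.5% lower in this test, against 12.5% and 15.8% of all tested genes, so such differences were about as frequent among them as in all genes. The calls for Arf1, Gorasp2, Gosr2, Sec22b, Stx5a and Tmed9 were lost on leaving out 1 library, and over such settings 2 to 6 genes were called higher and 3 to 12 lower. Stimulation time cannot be told apart from PAM3 here.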

How the results depend on the processing

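Counts of members called with 25HC at rest were 25 to 30 higher and 0 lower under all alternatives over all libraries or without replicate 2, and 24 to 27 higher with each library left out in turn. With PAM3 they were 23 to 24 higher and 2 to 4 lower (2 with only the groups compared), and 22 to 24 higher and 1 to 4 lower on leaving out 1 library, with 1 lower without untreated PAM3 library 3 or treated PAM3 library 1. For 25HC against PAM3 alone, leaving out 1 library gave 9 to 11 higher and 8 to 11 lower. For PAM3 against rest it gave 29 to 30 higher and 1 to 2 lower in untreated B6 (2 without resting library 1), 28 to 30 higher and 1 lower after 25HC, and 28 to 29 higher and 1 to 3 lower in Ch25h-/-. In Ch25h-/- the lower count was 1 without replicate 2 of every group, without PAM3 library 1 or without resting library 2. With only the groups compared, the higher count was 25 in untreated B6, 31 after 25HC and 28 in Ch25h-/-. In untreated B6 the calls of Copb2, Golga2, Gosr1, Sec22b and Tmed10 were lost by this setting. With no filter the higher count was 27 in untreated B6. Genotype comparisons kept 0 members throughout. The interaction depended most on the settings. Higher calls were 7 with a filter at 1 CPM, 7 with DESeq2 size factors, 8 with the DESeq2 Wald test and 2 to 6 on leaving out 1 library (2 without untreated PAM3 library 2 or treated PAM3 library 3). Lower calls were 3 with no filter, 11 without replicate 2 of every group and 3 to 12 on leaving out 1 library (12 without untreated PAM3 library 1, and 3 or 4 without 7 of the others). The cause was not tested.

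The replicate block by mouse number changed the call of 8 gene results, each given beside its result, and no other member's. Between genotypes the block was the library number alone, shared by different mice. It gave 120 genes higher and 248 lower with PAM3, and the DESeq2 Wald test 144 and 260, against 6 and 16 without a block, with 0 members in each. At rest the block gave 9 and 5 and DESeq2 11 and 10, against 0 and 1. With no filter, the genotype comparison with PAM3 gave 3 and 10, and lower calls of the interaction over all genes were 1279, against 2014.

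Values that changed sign were those of uncalled genes near 0. Copg2 with 25HC at rest became -0.031 with no filter and -0.038 without replicate 2 of every group, and ran from -0.017 (without treated library 2) to 0.068 on leaving out 1 library. Tmed10 at rest became -0.047 without replicate 2 of every group and ran from -0.058 (without untreated library 2) to 0.15 on leaving out 1 library. Copz2 with 25HC and PAM3 became -0.0075 with the replicate block and -0.14 without replicate 2 of every group, and ran from -0.22 (without treated library 2) through -0.11 (without untreated library 1) to 0.18.

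Depth limits only Kdelr3 (0 to 235 counts a library). The libraries give relative levels, so a change in total RNA per cell is not seen.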
